A study of Mus musculus with 4 samples.

Results

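The expression of 10 genes of the inhibitory checkpoint axis was followed in single cells of mouse pancreatic ductal adenocarcinoma: the receptors Pdcd1, Lag3, Havcr2, Tigit and Ctla4, the transcription factor Tox, and the ligands Cd274, Pdcd1lg2, Lgals9 and Cd80. The genes were picked by symbol, and all 10 were found once among the 32285 features of the count tables. The data are 4 droplet libraries (10x Genomics), 1 for each group: PH (paricalcitol, a vitamin D receptor agonist, with hydroxychloroquine, which blocks autophagy at the lysosome), G (gemcitabine, a nucleoside analogue), GPH (gemcitabine with both other drugs) and control (PBS). For GPH the treatment label is cut short, giving GnP-H and a gemcitabine dose of 60 mg/kg, so the agents were read from the title and the design text, and whether GnP names a further agent is not given in the sources used here. Each library pooled dissociated tumour pieces from 3 animals. Strain, age, tumour model and treatment times are not given in the sources used here. With 1 library per group there was no test and no p-value. The intervals below cover counting error only, not the spread between animals. Those of levels and ratios treat each UMI as independent, so they also leave out the spread between cells.

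Inhibitory receptors restrain lymphocytes after activation. Pdcd1 encodes PD-1, whose ligands PD-L1 (Cd274) and PD-L2 (Pdcd1lg2) are displayed by tumour and myeloid cells. Ctla4 competes with the costimulatory receptor CD28 for CD80 and CD86, and is carried at high density by regulatory T cells. Lag3 binds MHC class II, Tigit binds the poliovirus receptor family, and Havcr2 encodes TIM-3, which binds galectin-9 (Lgals9) among other ligands. Tox is a nuclear factor that sustains the exhausted state of T cells under chronic stimulation, in which several of these receptors are held together. Interferon-gamma is a known inducer of PD-L1, and pancreatic ductal adenocarcinoma is known for its poor response to blockade of the PD-1 axis.

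On mm10 (GENCODE vM21), the PD-1 ligand genes lie next to each other on the plus strand of chromosome 19, Cd274 at chr19:29367455-29388095 and Pdcd1lg2 at chr19:29410919-29471161. Pdcd1 (chr1:94038305-94052553, minus strand) and Ctla4 (chr1:60887000-60915832, plus strand) share chromosome 1, and Tigit (chr16:43648867-43664146, minus strand) and Cd80 (chr16:38455561-38496335, plus strand) share chromosome 16. Havcr2 (chr11:46454935-46481255, plus strand) and its ligand gene Lgals9 (chr11:78962974-78984946, minus strand) are both on chromosome 11. Lag3 is at chr6:124904361-124911705 and Tox at chr4:6686353-6991557, both on the minus strand. Promoter sequences from RefSeq (GRCm38.p6) matched 8 of the 10 genes. The 250 bases before the RefSeq gene start are shown for Cd274 and Lgals9, in the direction of transcription. These are the ligand genes measured in both tumour cell classes. RefSeq starts can differ from the GENCODE positions above. The Lgals9 window overlaps its GENCODE gene, and the Ctla4 and Cd80 windows lie inside theirs. Capitals mark a match, on either strand, to 1 of 3 motifs: the repeat bound by interferon regulatory factors (GAAA and GAAA, with 2 bases between), TGANTCA (AP-1) or the NF-kB site (GGG and TTTCC, with 2 bases between).
Cd274 (chr19:29367188-29367437, plus strand): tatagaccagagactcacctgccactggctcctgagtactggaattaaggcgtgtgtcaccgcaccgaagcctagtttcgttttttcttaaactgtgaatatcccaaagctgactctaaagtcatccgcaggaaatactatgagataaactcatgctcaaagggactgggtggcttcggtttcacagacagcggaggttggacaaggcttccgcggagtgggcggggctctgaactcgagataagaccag
Lgals9 (chr11:78984925-78985174, minus strand): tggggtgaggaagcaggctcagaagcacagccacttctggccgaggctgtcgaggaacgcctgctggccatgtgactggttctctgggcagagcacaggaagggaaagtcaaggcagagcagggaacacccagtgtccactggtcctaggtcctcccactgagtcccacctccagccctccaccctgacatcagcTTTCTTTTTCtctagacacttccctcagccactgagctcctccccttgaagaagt
The Cd274 window held no match. The Lgals9 window held 1 match to the interferon regulatory factor repeat, which begins 55 bases before the RefSeq gene start. Of 27025 gene promoters of this length, 3.04% held the interferon regulatory factor repeat, 6.87% AP-1 and 1.40% NF-kB. Among the other matched genes, Havcr2 and Cd80 held 1 AP-1 match each, and Pdcd1, Tigit, Ctla4 and Pdcd1lg2 held no match.

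The cells kept numbered 13977 in PH, 12449 in G, 4411 in GPH and 10074 in control, with median depths of 7859, 4610, 20103 and 9633.5 UMIs in that order. Barcodes with over 20% mitochondrial UMIs made up 41.0% of GPH and 12.7% to 15.6% of the other libraries. Any 2 libraries shared between 10 and 43 cell barcodes, at most 0.427% of the smaller one. Lymphocyte numbers differed more than library sizes: CD8 T cells numbered 286 in PH, 566 in G, 23 in GPH and 233 in control, and regulatory T cells 14, 729, 0 and 17. The cells of a class came from different sub-clusters in different libraries.

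The classes were checked against their defining markers. Cd8a and Cd8b1 summed to 933, 855, 1374 and 1412 CPM in the CD8 T cells of PH, G, GPH and control, and Cd4 to between 0 and 18.5 CPM there. CPM here are a gene's UMIs scaled by all UMIs of the class in that library. The tumour classes were set by gene levels: keratin-high clusters, with 9 ductal markers at 17510 CPM in GPH and 15210 CPM in G, and vimentin-high clusters, where the same markers summed to between 780 and 1476 CPM. The vimentin-high cells are named by that gene, and Ptprc, the gene of CD45, stood at 0.839, 6.78, 0.0711 and 0.989 CPM there in PH, G, GPH and control. Each library had some signal of the wrong class. The 8 T cell markers summed to 16.7, 44.8, 21.3 and 10.2 CPM in vimentin-high cells of PH, G, GPH and control. Of the 8, 1 was at 0 in GPH and none in the others. Cd3e alone gave 13.0, 18.6, 20.2 and 5.24 CPM, most of the sum in PH and GPH, so the sums do not rank the libraries by T cell signal. A non-immune cluster left out of the classes held Cd3e at 124 CPM with Cd3d at 0.405 CPM. The source of the Cd3e reads was not tested. Shares of cells with a UMI of a receptor are therefore read beside the share in a class that should lack the gene.

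The first question was which inhibitory receptors the CD8 T cells carried in each library. Tox and Pdcd1 stood higher in G than in control, and Lag3 lower in both PH and G than in control. Pdcd1 stood at 187 CPM in PH (141 UMIs), 314 CPM in G (673 UMIs), 742 CPM in GPH (67 UMIs) and 170 CPM in control (102 UMIs). The counting intervals of G (291 to 339) and GPH (575 to 943) lay above that of control (139 to 207), and that of PH (157 to 220) overlapped it. Tox stood at 128 CPM in PH, 183 CPM in G, 166 CPM in GPH and 53.5 CPM in control. All 3 treated libraries were higher than control for this exhaustion factor, with no overlap of their intervals with that of control. Lag3, the MHC class II receptor, stood at 130 CPM in PH, 121 CPM in G, 377 CPM in GPH and 251 CPM in control, so PH and G were the low pair. Ctla4 stood at 249, 211, 465 and 294 CPM in PH, G, GPH and control, Havcr2 at 70.1, 83.1, 288 and 86.9 CPM, and Tigit at 51.6, 37.8, 44.3 and 28.4 CPM. Over the whole class GPH was thus the highest library for Pdcd1, Lag3, Havcr2 and Ctla4. That came from 23 cells, too few for a ratio by the limit of 50 cells. All 23 lay in sub-cluster 5, which held 17 of 233 control cells, so GPH was not compared with like control cells.

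**Figure D1:**
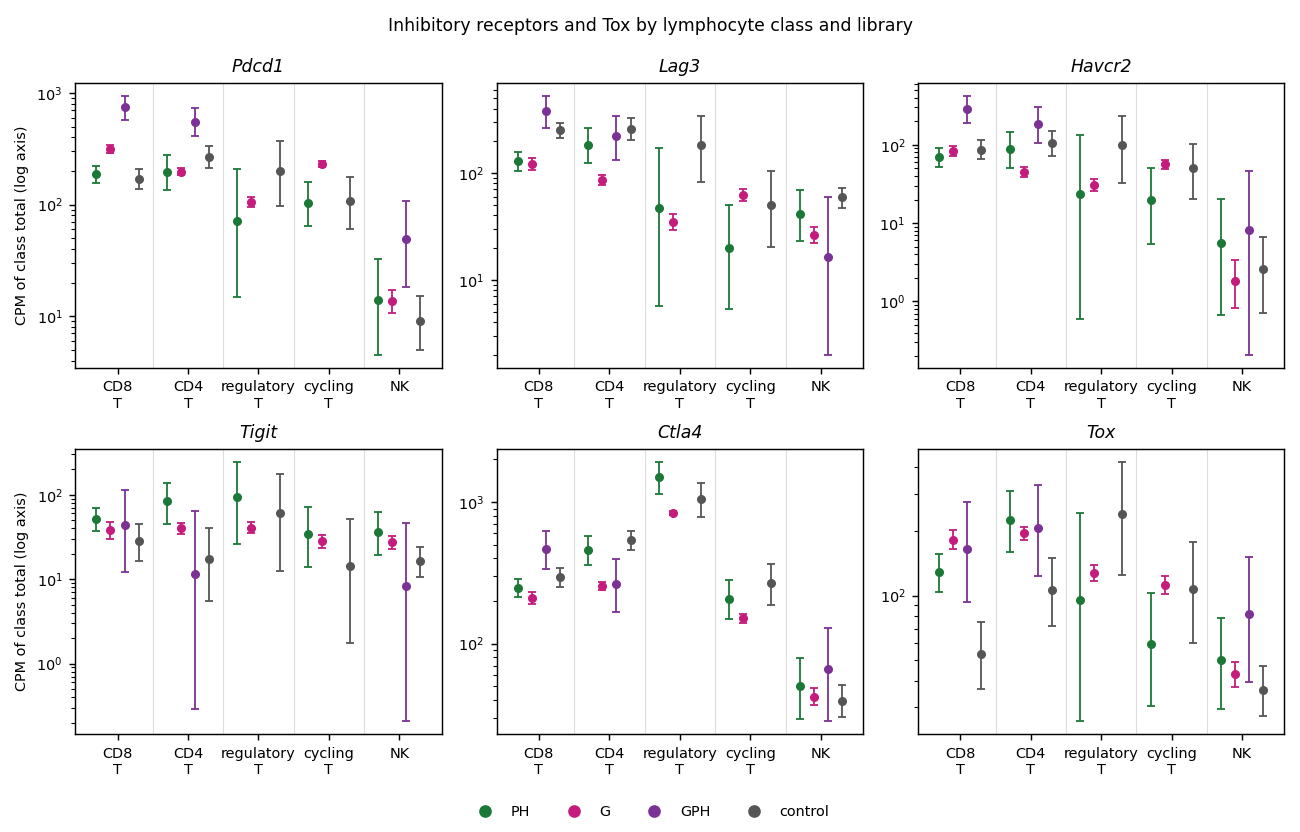
CPM of the class total (log axes) of 5 inhibitory receptors and Tox in 5 lymphocyte classes, for PH, G, GPH and control. Points are single libraries with at least 10 cells in the class, bars are exact Poisson 95% intervals. Tox in CD8 T cells is lowest in control at 53.5 CPM, and Ctla4 is highest in regulatory T cells.

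Against control, 2 of the 6 genes were at least 1.5-fold higher and 1 lower in PH CD8 T cells, where 26.3% of all measured genes passed that limit in either direction. Tox was higher (ratio 2.40, 95% interval 1.60 to 3.70), as was Tigit (ratio 1.82, 1.004 to 3.43), and Lag3 was lower (ratio 0.518, 0.397 to 0.672). In G CD8 T cells the counts were again 2 higher and 1 lower of 6, against 37.7% of all measured genes in either direction. Tox (ratio 3.42, 2.39 to 5.08) and Pdcd1 (ratio 1.84, 1.50 to 2.29) were higher, Lag3 (ratio 0.484, 0.395 to 0.596) was lower, and the other 3 lay within 1.5-fold. The median log2 ratio of the 6 genes was -0.05 in PH and 0.17 in G, beside -0.04 and -0.02 over all measured genes. PH and G share the control library, so these values are not independent of each other.

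The shares of cells with a UMI carry the depth of each library with them. Pdcd1 was found in 31.5% of PH, 57.4% of G, 82.6% of GPH and 28.3% of control CD8 T cells, at median depths of 2180, 3419.5, 3869 and 2347 UMIs. In vimentin-high cells of the same libraries, at median depths of 9273, 9880, 14722 and 11218 UMIs, the shares were 0.120%, 0.814%, 0% of 1527 cells (which allows up to 0.196%) and 0.0996%. With every cell thinned to 1000 UMIs, which left out 11, 10, 1 and 17 cells, Pdcd1 was found in 13.8%, 25.2%, 50.0% and 16.7%, and Tox in 12.4%, 19.1%, 9.09% and 6.48%. The thinned Lag3 shares were 12.4%, 12.8%, 27.3% and 18.1%. In thinned vimentin-high cells, Pdcd1, Lag3 and Tox were each found in at most 0.265% of cells in any library. At equal depth the Tox share of G (15.9% to 22.6%) lay above that of control (3.59% to 10.6%) without overlap. The Pdcd1 shares of G (21.6% to 29.0%) and control (11.95% to 22.3%) overlapped at their edges, as did the Lag3 shares of G (10.1% to 15.8%) and control (13.2% to 23.8%).

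The CD8 T cells came from a pair of sub-clusters in unequal parts. Sub-cluster 6 held 219 of 286 cells in PH, 72 of 566 in G, none of 23 in GPH and 216 of 233 in control, and sub-cluster 5 held the rest. Within sub-cluster 6, Lag3 stood at 65.5 CPM in PH, 56.1 CPM in G and 232 CPM in control (PH ratio 0.282, 0.188 to 0.413, and G ratio 0.242, 0.128 to 0.420). The Lag3 difference was thus at least as large within sub-cluster 6 as in the whole class. Pdcd1 did not differ beyond its intervals there, at 139 CPM in PH, 128 CPM in G and 160 CPM in control (G ratio 0.80, 0.517 to 1.21). Havcr2 was lower there in both PH (ratio 0.588, 0.349 to 0.972) and G (0.339, 0.129 to 0.755), and so was Ctla4 in PH (0.759, 0.590 to 0.973) and G (0.646, 0.453 to 0.906). Tox in sub-cluster 6 had a ratio of 1.73 (1.05 to 2.91) in PH and of 1.32 (0.664 to 2.54) in G. The higher Pdcd1 of G over the whole class was not seen within sub-cluster 6, and for Tox of G the interval there held 1. In sub-cluster 5, with 494 of the 566 G cells, Pdcd1 stood at 339 CPM in G and 302 CPM in PH (ratio of G to PH 1.12, 0.870 to 1.46). Lag3 in sub-cluster 5 stood at 130 CPM in G and 284 CPM in PH (ratio of G to PH 0.457, 0.346 to 0.613), so PH and G were not alike there. The 17 control cells of sub-cluster 5 were too few to compare PH, G or GPH with control. Within sub-clusters the limit was 20 cells. In sub-cluster 5 the 23 GPH cells stood above the 494 G cells for Pdcd1 (ratio 2.19, 1.68 to 2.82), Lag3 (2.90, 1.96 to 4.16), Havcr2 (3.19, 2.02 to 4.83) and Ctla4 (2.17, 1.54 to 2.98). Tox in the same cells had a ratio of 0.836 (0.463 to 1.40).

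**Figure D2:**
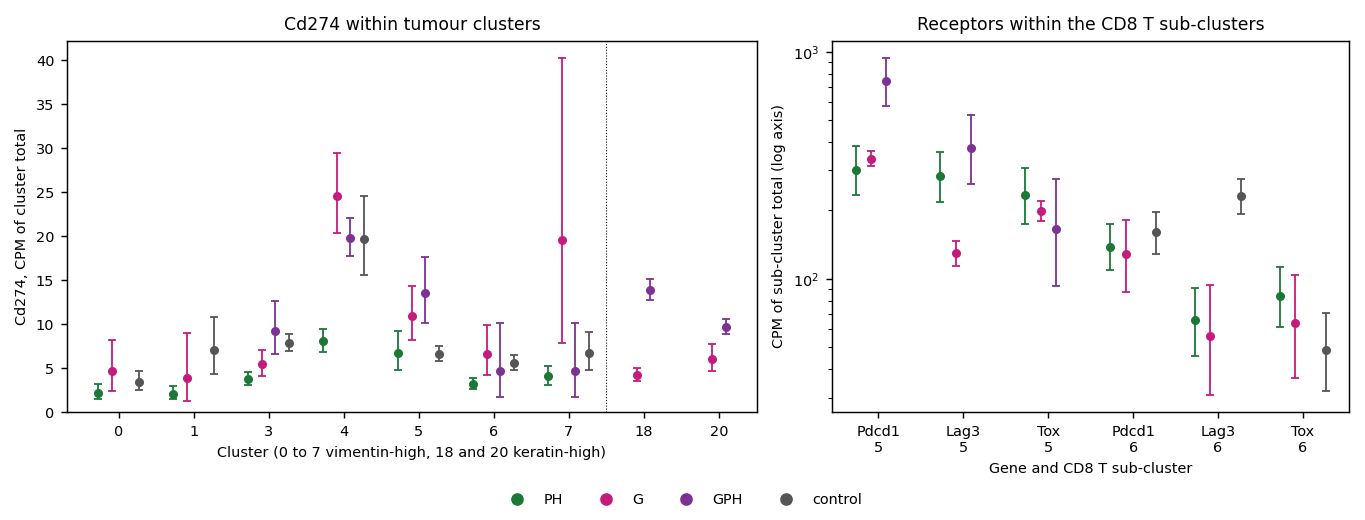
Left, Cd274 in CPM within 7 vimentin-high clusters and 2 keratin-high clusters, for libraries with at least 50 cells and 1 UMI or more there. Right, Pdcd1, Lag3 and Tox in CPM (log axis) within CD8 T sub-clusters 5 and 6, for libraries with at least 20 cells. Bars are exact Poisson 95% intervals. Lag3 in sub-cluster 6 is at 65.5 CPM in PH and 56.1 CPM in G, under 232 CPM in control, and by value Cd274 is higher in cluster 4 than in the other vimentin-high clusters drawn, in each library.

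In CD8 T cells another gene had the same low pair of libraries as Lag3. Nmt1, which attaches myristate to proteins, stood at 35.7 CPM in PH, 36.0 CPM in G, 199 CPM in GPH and 154 CPM in control CD8 T cells, and it split the libraries in the same way in CD4 T cells, NK cells and macrophages. In vimentin-high cells it stood at 26.0 CPM in PH, 26.1 CPM in G, 99.8 CPM in GPH and 113 CPM in control, so that the comparisons of PH and G with control and of GPH with G cross this split. What sets the split, and its part in the Lag3 and tumour cell differences, was not tested. The 8 T cell markers summed to 5115 CPM in PH, 4766 CPM in G, 5727 CPM in GPH and 6963 CPM in control CD8 T cells, with none at 0.

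CD4 T cells outside the regulatory class showed lower Lag3, Havcr2 and Ctla4 and higher Tox in G than in control. Lag3 stood at 184 CPM in PH (31 UMIs in 77 cells), 86.4 CPM in G (379 UMIs in 1212 cells), 219 CPM in GPH (19 UMIs in 25 cells) and 260 CPM in control (76 UMIs in 109 cells). Ctla4 stood at 457, 256, 265 and 537 CPM in the same order, and Havcr2 at 89.1, 44.9, 185 and 106 CPM. G was the lowest of the 4 libraries for all 3, though its interval for Ctla4 overlapped that of the 25 GPH cells. Tox went the other way, with 226 CPM in PH, 196 CPM in G, 208 CPM in GPH and 106 CPM in control, the lowest. Pdcd1 stood at 196 CPM in PH, 197 CPM in G, 554 CPM in GPH and 267 CPM in control.

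Of 6 genes in G CD4 T cells, 2 were at least 1.5-fold higher and 3 lower than in control, where 19.6% of all measured genes were higher and 26.2% lower, 45.8% in all. Lag3 (ratio 0.332, 0.259 to 0.431), Havcr2 (0.423, 0.289 to 0.640) and Ctla4 (0.476, 0.403 to 0.566) were lower, and Tox (1.84, 1.29 to 2.73) was higher. Tigit was higher by size (ratio 2.34, 0.986 to 7.31), from 176 UMIs in G and 5 UMIs in control. Pdcd1 (ratio 0.739, 0.585 to 0.944) lay within 1.5-fold. In PH CD4 T cells 1 of 5 measured genes was higher, Tox (ratio 2.13, 1.29 to 3.54), and none lower, where 35.3% of all measured genes passed. The median log2 ratio of the measured members was -0.25 in PH and -0.75 in G, beside -0.13 and -0.14 over all measured genes. Sub-cluster 0, with Il17a among its leading genes, held 449 of the 1212 G cells and 22 of the 109 control cells. In sub-cluster 2, with 318 G and 60 control cells, Lag3 (ratio 0.564, 0.391 to 0.834) and Ctla4 (0.386, 0.308 to 0.487) were again lower and Tox (2.09, 1.28 to 3.65) higher. Havcr2 there had a ratio of 0.733 (0.439 to 1.29), and in sub-cluster 1 of 0.337 (0.183 to 0.677). In sub-cluster 0 the lower Ctla4 and higher Tox of G were not seen, with a ratio of 1.74 (0.935 to 3.65) for Ctla4 and 0.836 (0.272 to 4.17) for Tox, and Pdcd1 was lower (0.202, 0.101 to 0.450). The class was not free of CD8 genes. Cd8a and Cd8b1 summed to 178 CPM in PH, 107 CPM in G, 162 CPM in GPH and 17.1 CPM in control CD4 T cells, beside Cd4 at 226, 191, 531 and 270 CPM. They were highest in sub-cluster 1, with 445 G and 27 control cells, where Cd8a stood at 84.4 CPM and Cd8b1 at 94.95 CPM over all libraries, and their part in the differences was not tested.

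Regulatory T cells carried the highest Ctla4 of all lymphocyte classes in each library that had them, at 1495 CPM in PH (63 UMIs in 14 cells), 839 CPM in G (3352 UMIs in 729 cells) and 1046 CPM in control (52 UMIs in 17 cells). The intervals of PH (1149 to 1913) and G (811 to 868) did not overlap, and that of control (781 to 1371) overlapped both. GPH held no cell of this class. With 14 and 17 cells in PH and control, no ratio was formed. In G, Ctla4 was found in 87.4% of regulatory T cells and in 1.44% of vimentin-high cells, at median depths of 4042 and 9880 UMIs, and in 55.5% and 0.195% after thinning. The other receptors of G regulatory T cells stood at 105 CPM for Pdcd1, 34.8 CPM for Lag3, 30.8 CPM for Havcr2 and 40.8 CPM for Tigit, with Tox at 128 CPM. Against G CD4 T cells, the intervals of Pdcd1, Lag3, Havcr2 and Tox lay lower and that of Tigit overlapped. Cycling T cells of G, 420 in number, held Pdcd1 at 231 CPM, against 104 CPM in 28 PH cells and 108 CPM in 24 control cells.

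NK cells held little Pdcd1 and almost no Havcr2 in any library. Pdcd1 stood at 13.9 CPM in PH, 13.6 CPM in G, 49.3 CPM in GPH and 9.06 CPM in control, from 5, 68, 6 and 14 UMIs. Havcr2 had 2, 9, 1 and 4 UMIs. Lag3 stood at 41.6 CPM in PH, 26.2 CPM in G, 16.4 CPM in GPH and 58.9 CPM in control, and control was again higher than G without overlap of their intervals. Tigit stood at 36.0 CPM in PH, 27.2 CPM in G, 8.22 CPM in GPH (1 UMI) and 16.2 CPM in control. In PH NK cells 1 of 4 measured genes was at least 1.5-fold higher, Tigit (ratio 2.23, 1.05 to 4.52), where 37.5% of all genes passed in either direction. In G NK cells 2 of 5 were higher, Tigit (ratio 1.68, 1.09 to 2.69) and Pdcd1 (1.50, 0.837 to 2.89), and 1 was lower, Lag3 (0.445, 0.338 to 0.588), beside 32.6% of all genes. The NK sub-clusters differed between libraries, with sub-cluster 0 holding 41 of 100 cells in PH, 21 of 1064 in G and 191 of 261 in control. Within it the PH ratio was 1.00 (0.112 to 4.26) for Tigit and 1.11 (0.486 to 2.24) for Lag3. The G ratio of Tigit was 0.678 (0.0162 to 4.37) there and 0.583 (0.214 to 1.67) in sub-cluster 4, with 82 G and 35 control cells, so its higher level in the class was not seen within them. Lag3 of G had a ratio of 0.334 (0.0396 to 1.26) in sub-cluster 0 and of 0.313 (0.145 to 0.658) in sub-cluster 4. NK sub-cluster 1, with 192 G cells and 9 control cells, held Pdcd1 at 49.0 CPM and Ctla4 at 99.1 CPM in G, the highest of the NK sub-clusters of that library for both. The median log2 ratio of the measured members was 0.40 in PH and 0.25 in G, beside -0.11 and 0.00 over all measured genes.

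**Figure D3:**
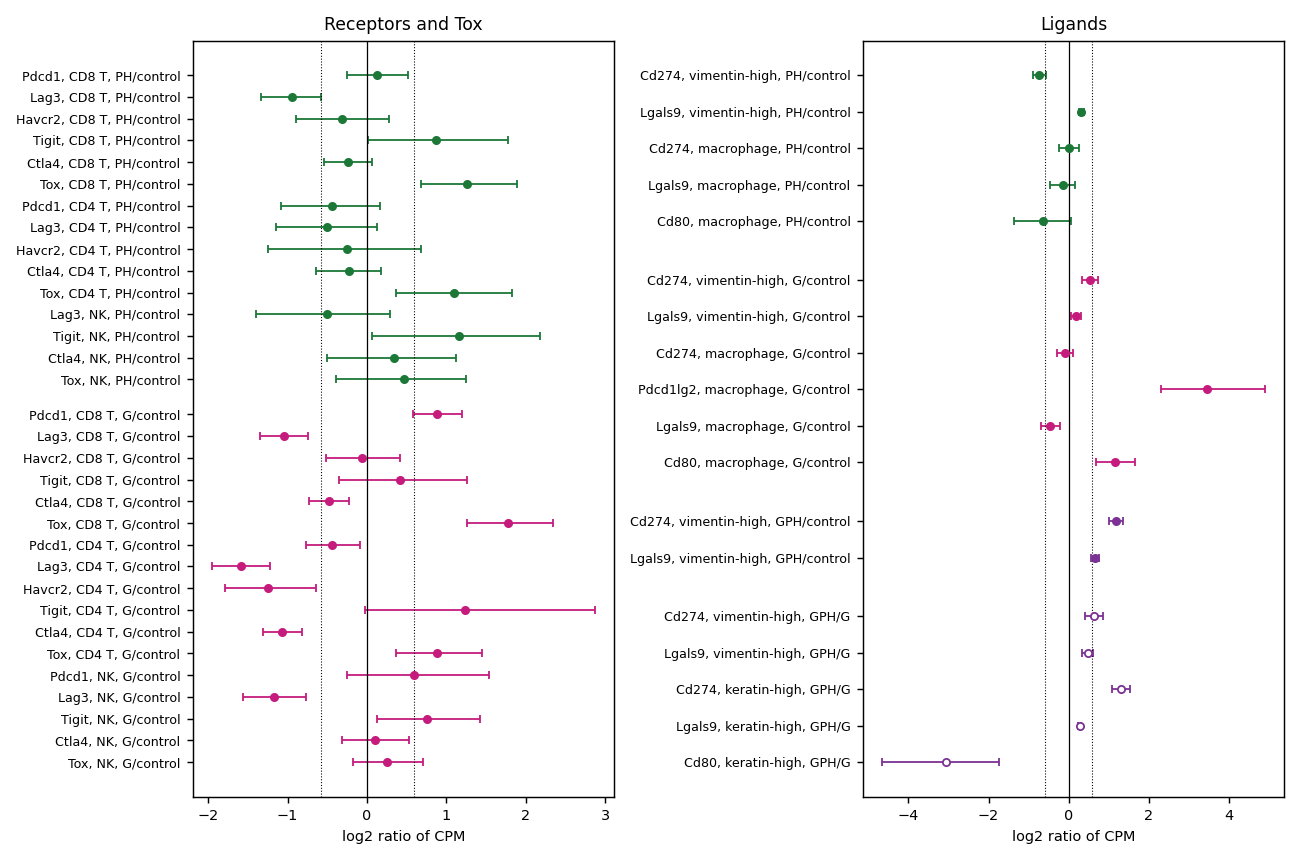
Log2 ratios of CPM for the measured receptors and Tox (left) and ligands (right), by class and comparison, with exact binomial 95% intervals. Green is PH over control, pink G over control, filled purple GPH over control and open purple GPH over G. Dotted lines mark 1.5-fold. Lag3 lies left of 0 in the 3 lymphocyte classes of both PH and G, and Tox lies right of 0 in each of them.

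Counting how many of the 5 receptors a single CD8 T cell carried gave different orders with and without depth. Before thinning, 35.0% of PH, 54.6% of G, 73.9% of GPH and 37.8% of control CD8 T cells had a UMI of 2 or more receptors. With each cell at 1000 UMIs the shares were 13.5% in PH, 13.5% in G, 36.4% in GPH and 13.4% in control. The 3 larger libraries then lay within 0.1 percentage points of each other. GPH, with 8 of 22 cells (17.2% to 59.3%), had an interval that overlapped that of PH (9.65% to 18.1%) at its edge. In CD4 T cells the thinned shares were 20.8% in PH, 10.4% in G, 20.8% in GPH and 23.1% in control, so G was the low library, with an interval (8.70% to 12.3%) under that of control (15.4% to 32.4%).

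**Figure D4:**
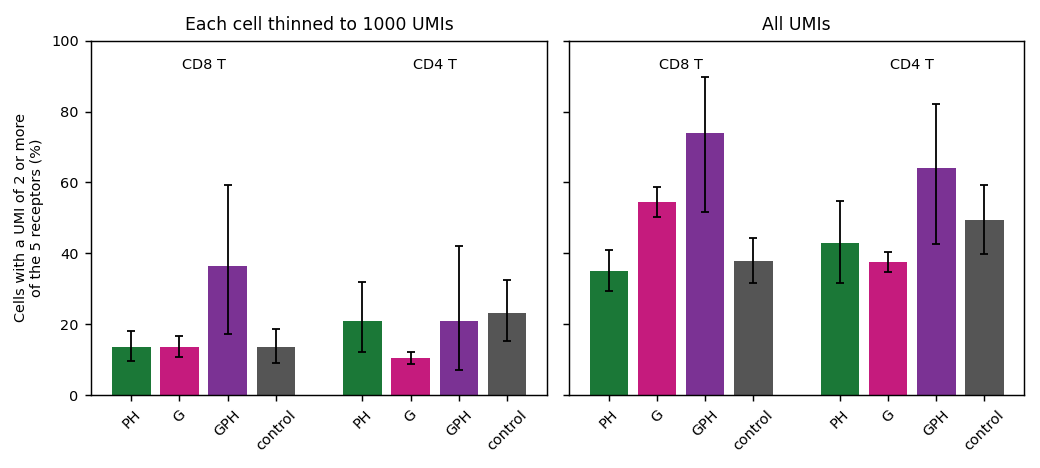
Share of CD8 and CD4 T cells with a UMI of 2 or more of Pdcd1, Lag3, Havcr2, Tigit and Ctla4, with each cell thinned to 1000 UMIs (left) and with all UMIs (right), for PH, G, GPH and control. Bars start at 0 and error bars are exact Clopper-Pearson 95% intervals. After thinning the CD8 T cell share is 13.5%, 13.5% and 13.4% in PH, G and control.

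Genes of the T cell exhaustion and effector programme were read beside the receptors. In G CD8 T cells 5 of 24 measured programme genes were at least 1.5-fold higher and 14 lower than in control (median log2 ratio -0.91, against -0.02 over all genes), where 18.5% of all measured genes were higher and 19.2% lower. Tnfrsf9, the costimulatory receptor 4-1BB, stood at 506 CPM in G and 95.2 CPM in control (ratio 5.32, 4.07 to 7.07). The nuclear factors Ikzf2 (222 CPM in G, 80.2 CPM in control) and Nr4a2 (453 CPM in G, 236 CPM in control) were also higher. The cytotoxic gene Gzmb stood at 273 CPM in G and 1343 CPM in control (ratio 0.203, 0.182 to 0.226), with Gzmk (ratio 0.292) and the interleukin-7 receptor gene Il7r (ratio 0.234) lower too. These 24 genes were read over the whole class, whose sub-cluster 6 held 72 of 566 G cells and 216 of 233 control cells. The 8 NK markers summed to 1929 CPM in PH, 559 CPM in G, 953 CPM in GPH and 1741 CPM in control CD8 T cells, with 2, 0, 5 and 1 of them at 0, and the part of both in the Gzmb difference was not tested. In PH CD8 T cells 4 of 20 programme genes were higher and 1 lower, beside 26.3% of all genes in either direction, with Tnfrsf9 at 253 CPM against 95.2 CPM in control (ratio 2.66, 1.97 to 3.63), and Prdm1, which encodes Blimp-1, lower (ratio 0.385, 0.202 to 0.705). In CD4 T cells of G, 7 of 24 were higher and 8 lower, beside 19.6% and 26.2% of all genes, with Nr4a2 (ratio 2.65) and Ikzf2 (2.70) again higher and Gzmb (0.18) lower. Among 16 other inhibitory receptors, 11 were measured in G CD8 T cells, with 4 higher and 3 lower, beside the same 18.5% and 19.2% of all genes. Cd200r1 stood at 53.7 CPM in G and 15.0 CPM in control, and Vsir, which encodes VISTA, at 22.9 CPM in G and 56.8 CPM in control. In PH CD8 T cells 12 were measured, 2 higher and 1 lower, again with Vsir as the low one (ratio 0.582, 0.333 to 1.01).

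The next question was where the ligands sat and whether the tumour cells differed. Cd274 stood at 4.10 CPM in PH, 9.96 CPM in G, 15.5 CPM in GPH and 6.84 CPM in control vimentin-high cells, from 528, 276, 436 and 809 UMIs. No interval overlapped another, so the order ran from PH, the lowest, through control and G to GPH. Lgals9 stood at 30.4 CPM in PH, 27.6 CPM in G, 38.4 CPM in GPH and 24.4 CPM in control. Pdcd1lg2 and Cd80 had 10 or fewer UMIs in this class in every library. In PH 1 of 2 measured ligands was at least 1.5-fold lower, Cd274 (ratio 0.600, 0.536 to 0.670), where 28.5% of all genes passed in either direction. In G none of 2 passed, with Cd274 just inside the limit (ratio 1.46, 1.27 to 1.67), beside 26.9% of all genes. In GPH both passed as higher, Cd274 (ratio 2.27, 2.01 to 2.55) and Lgals9 (1.57, 1.47 to 1.69), where 25.8% of all genes were higher and 38.2% passed in either direction. Against G, GPH had 1 of 2 higher, Cd274 (ratio 1.56, 1.34 to 1.82), beside 35.8% of all genes. Median log2 ratios of these 2 ligands were -0.21 in PH, 0.36 in G and 0.92 in GPH against control, and 0.56 in GPH against G, where those over all genes were 0.06, 0.00, 0.19 and 0.23.

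The clusters behind the Cd274 levels differed between libraries. Cluster 4 held 911 of 1527 vimentin-high cells in GPH, against 418 of 2088 in G and 325 of 8034 in control. Within it Cd274 stood at 8.06 CPM in PH, 24.6 CPM in G, 19.8 CPM in GPH and 19.7 CPM in control. The ratio of GPH to control was 1.007 (0.785 to 1.3) in cluster 4 and 2.04 (1.48 to 2.76) in cluster 5, and the interval lay above 1 in 1 of 6 measured clusters. Against G, the ratio in cluster 4 was 0.806 (0.652 to 1.002), and the interval lay above 1 in 1 of 4 clusters. For G against control, the interval lay above 1 in 2 of 7 clusters, cluster 5 (1.66, 1.21 to 2.24) and cluster 7 (2.89, 1.09 to 6.51), and under 1 in cluster 3 (0.692, 0.508 to 0.929). The lower Cd274 of PH was spread more widely, with the interval under 1 in 5 of 7 clusters, among them cluster 4 (ratio 0.410, 0.311 to 0.544) and cluster 1 (0.301, 0.169 to 0.548). The intervals of cluster 0 (ratio 0.644, 0.388 to 1.06) and cluster 5 (1.01, 0.697 to 1.43) held 1. Lgals9 of PH lay above control in 7 of 7 clusters, while the class ratio was 1.24 (1.19 to 1.31). Thinned to 1000 UMIs, Cd274 was found in 0.521% of PH, 1.36% of G, 0.728% of GPH (11 cells) and 0.792% of control vimentin-high cells. The interval of GPH (0.364% to 1.30%) overlapped those of PH, G and control, so the higher CPM of GPH was not seen at equal depth.

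Keratin-high cells numbered 5 in PH and 1 in control, so they were compared between GPH and G. There Cd274 stood at 11.5 CPM in GPH (1042 UMIs in 2123 cells) and 4.66 CPM in G (201 UMIs in 1322 cells). GPH was higher (ratio 2.47, 2.12 to 2.89), and it was higher within cluster 18 (3.30, 2.73 to 4.01) and within cluster 20 (1.60, 1.23 to 2.11). Cells with a Cd274 UMI made up 20.2% in GPH and 11.2% in G at median depths of 42059 and 29497 UMIs, and 1.45% (0.974% to 2.08%) in GPH and 0.532% (0.214% to 1.09%) in G after thinning, which left out 125 and 7 cells and gave intervals that overlapped at their edges. Lgals9 was abundant in these cells, at 239 CPM in GPH and 197 CPM in G (ratio 1.21, 1.18 to 1.25). Cd80 had 6 UMIs in GPH and 24 UMIs in G (ratio 0.119, 0.0398 to 0.299). Of the receptors with 20 UMIs or more over both libraries, Ctla4, Pdcd1 and Havcr2 were also lower. They had 1, 0 and 2 UMIs in GPH and 68, 23 and 37 UMIs in G. Lag3 had 84 UMIs in GPH and 54 UMIs in G (ratio 0.741, 0.521 to 1.06). The part of signal from other classes in the Cd80 ratio was not tested. Of 3 measured ligands, 1 was at least 1.5-fold higher and 1 lower in GPH, where 32.9% of all genes passed in either direction. The median log2 ratio of the 3 was 0.28, and that of all genes 0.24. Of leukocyte markers, Ptprc stood at 0.398 CPM in GPH and 4.41 CPM in G keratin-high cells, and the macrophage gene C1qa at 0.0774 CPM in GPH and 3.48 CPM in G. Cd3e ran the other way, at 15.9 CPM in GPH and 6.63 CPM in G. The 13 macrophage markers summed to 2695 CPM in GPH and 1963 CPM in G, with 2 and 0 of them at 0, of which Plac8 gave 2686 CPM in GPH and 1900 CPM in G. Tox was also read in keratin-high cells, with 3.95 CPM in GPH (357 UMIs) and 5.61 CPM in G (242 UMIs).

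**Figure D5:**
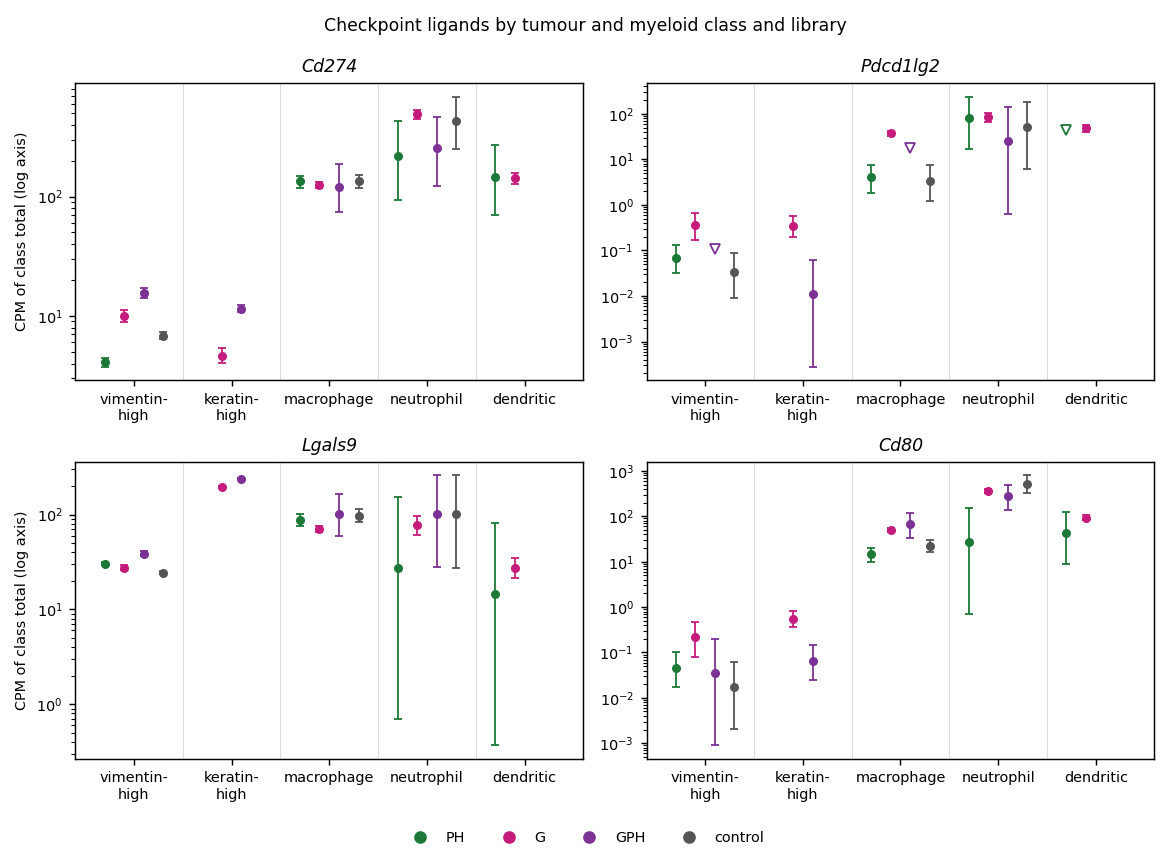
CPM of the class total (log axes) of 4 checkpoint ligands in 5 tumour and myeloid classes, for PH, G, GPH and control. Points are libraries with at least 10 cells in the class, bars exact Poisson 95% intervals, and open triangles the limit allowed by 0 UMIs (3 counts per library). Cd274 in vimentin-high cells is at 4.10 CPM in PH and 15.5 CPM in GPH. By value Cd80 and Pdcd1lg2 are higher in macrophages than in vimentin-high cells of PH, G and control. Lymphocytes, which also hold Pdcd1lg2, are not drawn.

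In macrophages the libraries differed in Pdcd1lg2 and Cd80, while the intervals of Cd274 overlapped over the whole class. Cd274 stood at 134 CPM in PH, 125 CPM in G, 120 CPM in GPH and 134 CPM in control. With cells weighted equally its log2 ratio to control was -0.63 in PH and -0.66 in G, and with cells thinned to 1000 UMIs -0.47 in PH and -0.55 in G. Pdcd1lg2 stood at 4.07 CPM in PH (9 UMIs), 37.1 CPM in G (378 UMIs) and 3.40 CPM in control (6 UMIs), and the 13 GPH cells had 0 UMIs, which allows up to 18.1 CPM. The ratio of G to control was 10.9 (4.97 to 29.95). Cd80 stood at 14.5 CPM in PH, 50.2 CPM in G, 66.2 CPM in GPH (11 UMIs) and 22.6 CPM in control. G was higher than control (ratio 2.21, 1.60 to 3.14), and PH lower by size (0.638, 0.388 to 1.04). At equal depth Cd80 was found in 5.38% of G and 5.78% of control macrophages, so the share of cells did not follow the CPM, and 0.287% of G and 0.0249% of control vimentin-high cells had a Cd80 UMI before thinning (macrophage median depths 4487 UMIs in G and 5906 UMIs in control). Lgals9 stood at 87.6 CPM in PH, 71.1 CPM in G, 102 CPM in GPH and 97.4 CPM in control (G ratio 0.730, 0.617 to 0.867). Of 4 measured ligands in G macrophages, 2 passed 1.5-fold upward and 0 downward, where 43.7% of all genes passed in either direction. Of 3 in PH, 1 was lower and none higher, beside 30.4% of all genes. The medians were 0.53 in G and -0.15 in PH, against -0.07 and -0.06 over all genes.

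The macrophages also came from different sub-clusters. Sub-cluster 1 held 195 of 292 PH cells and 154 of 230 control cells but 16 of 1936 G cells, which lay mostly in sub-clusters 7, 8, 6 and 4. Within sub-cluster 1 Cd274 had a PH ratio of 1.26 (1.01 to 1.57). In sub-cluster 8, Cd274 stood at 242 CPM in 581 G cells and 762 CPM in 24 control cells (ratio 0.318, 0.244 to 0.420). Cd80 there had a ratio of 1.46 (0.488 to 7.20). Pdcd1lg2 had 77 UMIs in G and 0 UMIs in control, with a lower bound of 0.806 for the ratio, so both intervals held 1. G levels of Pdcd1lg2 ran from 21.1 CPM in sub-cluster 7 to 60.7 CPM in sub-cluster 6, which also held the highest Cd80 of these 4 at 87.2 CPM. Dendritic markers, 5 in all, summed to 9.04 CPM in PH, 106 CPM in G and 3.96 CPM in control macrophages, with 1, 0 and 3 of them at 0, and their part in the Pdcd1lg2 and Cd80 differences was not tested. Havcr2 was a macrophage gene too, at 72.7, 132, 90.3 and 90.03 CPM in PH, G, GPH and control (G ratio 1.47, 1.25 to 1.74).

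Among the myeloid classes of G, neutrophils carried the highest CPM of Cd274 and Cd80. Cd274 stood at 218 CPM in PH (8 UMIs in 22 cells), 489 CPM in G (519 UMIs in 834 cells), 254 CPM in GPH (10 UMIs in 17 cells) and 429 CPM in control (17 UMIs in 30 cells). Cd80 stood at 27.3 CPM in PH (1 UMI), 355 CPM in G (377 UMIs), 279 CPM in GPH (11 UMIs) and 530 CPM in control (21 UMIs). The intervals of G, GPH and control overlapped for both genes, those of PH lay under those of G, and no ratio was formed from so few cells. Neutrophils were the shallowest class, with a median of 982.5 UMIs in G, and thinning left out 437 of its 834 cells. After thinning, Cd274 was found in 33.0% and Cd80 in 24.7% of the G neutrophils left.

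Dendritic cells numbered 406 in G and 15 or fewer in each other library. In G they held Cd274 at 142 CPM, Pdcd1lg2 at 48.4 CPM, Cd80 at 94.5 CPM and Lgals9 at 27.4 CPM, together with Havcr2 at 151 CPM. Mature dendritic cells, 51 in number, stood at 196 CPM for Cd274, 97.8 CPM for Pdcd1lg2 and 97.8 CPM for Cd80, but at 27.9 CPM for Havcr2, under the interval of sub-cluster 3 (254 CPM, 217 to 294). Plasmacytoid cells, 34 in number, had Cd274 at 71.9 CPM and 0 UMIs of Pdcd1lg2 and Cd80.

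Lymphocytes also held the ligand genes, so that NK cells were no background for them. In NK cells Pdcd1lg2 stood at 69.3 CPM in PH, 66.7 CPM in G, 57.5 CPM in GPH and 45.3 CPM in control, and Cd274 at 47.1, 66.3, 115 and 58.9 CPM. Pdcd1lg2 stood at 0.361 CPM or less in vimentin-high cells, which were read beside the lymphocytes instead. That class was picked for its low level in these same data, so it is not an independent background. In G, Pdcd1lg2 was found in 24.2% of NK cells (median depth 4169 UMIs), 30.9% of regulatory T cells and 0.479% of vimentin-high cells (9880 UMIs). Cd80 was found in 0.188% of G NK cells and in 10.3% of G regulatory T cells, with 23.8 CPM in regulatory T cells. Pdcd1lg2 was higher in G than in control CD8 T cells (51.8 CPM in G, 18.4 CPM in control, ratio 2.82, 1.52 to 5.81) and CD4 T cells (70.0 CPM in G, 34.2 CPM in control, ratio 2.05, 1.10 to 4.31).

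Genes of the interferon-gamma response, a list of both signalling and target genes, were followed in the ligand classes. In GPH vimentin-high cells 12 of 18 stood 1.5-fold or more above control and none below it (median log2 ratio 0.91, against 0.19 over all genes), where 25.8% of all genes were higher. These genes were read over the whole class, where cluster 4 held 911 of 1527 GPH and 325 of 8034 control cells. The part of that mix was not tested. The immunoproteasome gene Psmb9 stood at 13.4 CPM in GPH and 0.516 CPM in control, the chemokine gene Cxcl9 at 27.8 CPM in GPH and 3.50 CPM in control, and the peptide transporter gene Tap1 at 4.84 CPM in GPH and 0.516 CPM in control. In G 6 of 18 were higher and none lower, with Psmb9 at 14.5 CPM, beside 16.4% of all genes higher. In PH 2 were higher and 4 lower, beside 28.5% of all genes in either direction, the low ones including the signalling inhibitor gene Socs1 (23.1 CPM in PH, 40.4 CPM in control) and the class II transactivator Ciita (ratio 0.529, 0.462 to 0.604). In keratin-high cells 8 of 18 were higher in GPH than in G and 2 lower, where 22.7% of all genes were higher and 10.2% lower, with Gbp2 at 729 CPM in GPH and 353 CPM in G, and Cxcl10 at 91.4 CPM in GPH and 270 CPM in G. In G macrophages 9 of 18 were higher than in control and none lower, where 20.9% of all genes were higher, with Cxcl9 at 1735 CPM in G and 779 CPM in control. The 13 macrophage markers summed to 17.9, 102, 122 and 5.82 CPM in vimentin-high cells of PH, G, GPH and control, of which Plac8 alone gave 6.32, 54.0, 111 and 1.06 CPM, and 3 of the 13 were at 0 in GPH.

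Among 17 other checkpoint ligands, H2-T23, which encodes the NKG2A ligand Qa-1, differed in both tumour classes. It stood at 70.5 CPM in PH, 89.0 CPM in G, 243 CPM in GPH and 138 CPM in control vimentin-high cells, and at 194 CPM in GPH and 57.4 CPM in G keratin-high cells. In vimentin-high cells PH and G were again the low pair, as for Nmt1. Pvr, the ligand of TIGIT, stood at 61.3 CPM in GPH and 31.1 CPM in control (ratio 1.98, 1.86 to 2.09). Nectin2, a relative of Pvr, was lower in PH (ratio 0.611, 0.577 to 0.646) and higher in GPH than in G in both tumour classes (1.69 in vimentin-high and 1.70 in keratin-high cells). In all, 3 of 11 measured ligands were higher and 2 lower in GPH vimentin-high cells against control, where 25.8% of all genes were higher and 12.4% lower, and 2 of 13 higher and 2 lower in PH, beside 28.5% in either direction. In G macrophages 6 of 12 were higher and 1 lower, beside 20.9% and 22.8% of all genes, among the higher ones Cd86, which shares CTLA-4 and CD28 with CD80, at 157 CPM in G and 76.4 CPM in control.

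Likeness of pattern was measured as Pearson's r of log2(CPM + 1) over 25 points, each a class in a library with at least 50 cells, among 9314 genes. The points share libraries and classes, so r describes where genes are expressed and carries no p. Ctla4 was most like Icos (r = 0.980) and Cd28 (0.971), Pdcd1 was most like Cd3g (0.977) and Lat (0.975), and Lag3 most like Stk32c (0.962). Tigit and Tox were each other's nearest gene (0.960). Havcr2 was most like Cd200r1 (0.913), Cd274 most like Kctd12 (0.932), Pdcd1lg2 most like Crem (0.961), Cd80 most like Fem1c (0.931) and Lgals9 most like Preb (0.888).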

How the data were processed

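The authors deposited raw UMI counts per gene and barcode, without normalization. Per the submitters' processing notes they were made with Cell Ranger 6.1 on mm10, and the file headers name Cell Ranger 7.0.1. Deposited totals were 190110092 (PH), 144152432 (G), 143298547 (GPH) and 158887422 UMIs (control). Cells had at least 500 UMIs, at least 300 genes and at most 20% mitochondrial UMIs. The highest Scrublet scores were removed at 0.8% per 1000 cells, since the automatic threshold called at most 20 barcodes in a library. Cells were clustered without the 10 genes (scanpy 1.11.5, 2000 variable genes, 30 components, 15 neighbours, Leiden resolution 1.0), and lymphoid and myeloid clusters were sub-clustered and named from markers. Names come from these clusters, not from the authors.

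UMIs were summed per class and library. CPM carry exact Poisson, shares Clopper-Pearson and ratios exact binomial 95% intervals. A ratio needed 50 cells in both libraries and 20 UMIs over both, and 1.5-fold is a limit of size, not a test. Thinning drew 1000 UMIs per cell. Ratio intervals were tested on simulated counts drawn independently for each gene. Those counts hold no spread between cells, so that test does not cover it. The 10 genes, lists and markers were chosen with earlier results of these data known. All 10 genes are named, and from each list up to 3 higher and 3 lower genes per comparison qualified by the interval bound nearest to 0. One gene of the interferon list and 1 of the promoter motifs searched are not reported here.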

Additional observations from a re-analysis of the deposited data

Results flagged for a closer look

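Pdcd1 in G against control was higher in CD8 T cells (log2 ratio 0.88) and lower in CD4 T cells (log2 ratio -0.44), with counting intervals on opposite sides of 0. Lgals9 in G against control was higher in vimentin-high cells (log2 ratio 0.18) and lower in macrophages (log2 ratio -0.45), also with intervals on opposite sides. With 1 library per group, the difference between the classes was not tested in either case. For Pdcd1 the sub-cluster makeup of the CD8 T cells differed between G and control, and within sub-cluster 6 the ratio was 0.80.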

How the results depend on the processing

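Each count of values past 1.5-fold was recomputed under the alternatives. Without doublet removal the count was 8 for receptors in PH against control (5 in the report), 4 for ligands in G against control (2) and 5 for ligands in GPH against G (3). With cells weighted equally, receptors in PH against control gave 8. At up to 10% mitochondrial UMIs, ligands in PH against control gave 1 (2). With cells thinned to 1000 UMIs, ligands gave 1 in PH against control and 0 in GPH against control (2). At a fold of 2, receptors gave 3 in PH and 7 in G against control (11), and ligands 0 in PH and 1 in GPH against control. With mixed myeloid sub-clusters kept, chosen after seeing the data, ligands in GPH against G gave 6. The other 44 recomputed counts stayed within 1.5 times. Thinning turned 3 log2 ratios: Cd80 in macrophages of G against control to -0.11, and Cd274 in vimentin-high cells of GPH to -0.14 against control and to -0.95 against G, with the cause not tested. With cells weighted equally they were 0.24, 0.97 and 0.22. Another 31 ratios moved by more than 0.5 of the width of their counting interval, without a called value changing sign. The other 369 moved by less than that, though some near 0 changed sign, among them Havcr2 in CD8 T cells of G against control (-0.41 to 0.25). Lag3 stayed lower in CD8 T cells (log2 ratio -1.16 to -0.68 in PH, -1.58 to -0.75 in G) and Tox higher (0.92 to 1.38 in PH, 1.23 to 1.95 in G). None of these alternatives held the sub-cluster mix of the CD8 T cells fixed. Within sub-cluster 6 the Tox ratio of G to control was 1.32 (0.664 to 2.54). No receptor count exists for GPH, whose lymphocyte classes held under 50 cells. No paired analysis was possible because each group has 1 library. Shares after thinning moved in 98 of 110 cases, since fewer UMIs find fewer cells.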
